A study of Mus musculus with 18 samples.

Results

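The ribosome-bound RNA of hippocampal astrocytes was compared between mice injected with kainic acid (KA) and mice injected with PBS. The comparison used KA IP 1 to 3 and PBS IP 1 to 3, 6 of the 18 libraries of the series, and 9847 genes whose FPKM (fragments per kilobase of exon, scaled to library size) was above 1 in all 6. All animals were wild-type male C57BL/6J mice, 6 weeks old when an AAV-DJ vector was injected into the right CA3. The vector carried EGFP fused to the ribosomal protein Rpl10a under the astrocyte promoter GfaABC1D, so that anti-GFP beads pulled down ribosomes with the RNA on them (IP). The homogenate before the pulldown gave the input libraries. KA, an agonist of glutamate receptors that starts seizures, went into the right dentate gyrus 2 weeks after the vector, and RNA was taken 14 days later. The PBS group received PBS instead, and the interval before its RNA was taken is not given in the sources used here. A further AAV control group, with vector alone, was collected 2 weeks after injection. Each library pooled the right hippocampi of 3 to 4 mice. The promoter rather than the cells sets the specificity of the IP, and the tag reports RNA on ribosomes rather than all RNA of the cell.

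Astrocytes take up glutamate and potassium released by active neurons, couple to each other through gap junctions and cover blood vessels with endfeet that carry water channels. After seizures, injury or inflammation they become reactive: they enlarge, build up the intermediate filaments GFAP and vimentin and change what they secrete. In the sclerotic hippocampus of mesial temporal lobe epilepsy, which KA injection models, reactive astrocytes are among the most prominent changes. Lists of pan-reactive, A1 and A2 genes name transcripts that others found to rise in astrocytes after inflammation or ischaemia.

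The PBS IP libraries stood apart in more than their treatment. They were sequenced in a run of their own, whereas KA IP 1 and 2 came from run 1 and KA IP 3 from run 2, so the run and the treatment cannot be told apart. Total counts were 10424010 to 11142671 in KA IP and 10505073 to 16032180 in PBS IP. Between 27150 and 30772 genes had at least 1 count in PBS IP, against 23095 to 24038 in KA IP, while the inputs of both groups lay between 23454 and 24582. The mitochondrial genome gave 1.35%, 1.25% and 0.55% of counts in KA IP 1, 2 and 3, and 5.92%, 1.24% and 4.42% in PBS IP 1, 2 and 3. The first principal component, with 71.7% of the variance, separated the groups, and KA IP 3 lay apart from KA IP 1 and 2 on the next. The FPKM of Rpl10a, the ribosomal protein of the tag, was 343, 231 and 196 in KA IP 1, 2 and 3 and 253, 338 and 341 in PBS IP 1, 2 and 3, overlapping ranges. Nothing in the sources says that the pools were separate cohorts of surgery, so p-values measure the spread between these libraries.

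The IP was enriched for astrocyte markers, though in the KA group not for them alone. All 16 astrocyte markers listed here had a higher mean FPKM in IP than in input in both groups, by at least 1.89-fold in the KA group and 4.38-fold in the PBS group. The enrichment was deeper in PBS: the markers' FPKM summed to 3976 to 4661 in KA IP and 7490 to 12765 in PBS IP, from 1257 to 1332 and 908 to 1074 in the inputs. RNA of other cells remained, and by amounts that moved with the groups. Neuron markers summed to 405 to 498 in KA IP and 205 to 354 in PBS IP, oligodendrocyte markers to 1457 to 2843 and 304 to 643, and microglia markers to 67.9 to 120.4 and 30.5 to 58.1. In the inputs oligodendrocyte markers summed to 827 to 1061 in KA and 617 to 788 in PBS. In the KA group they too were thus higher in IP than in input. The part of these other cells in the results was not tested. In bulk libraries, fewer cells of a type and less RNA per cell cannot be told apart.

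**Figure D1:**
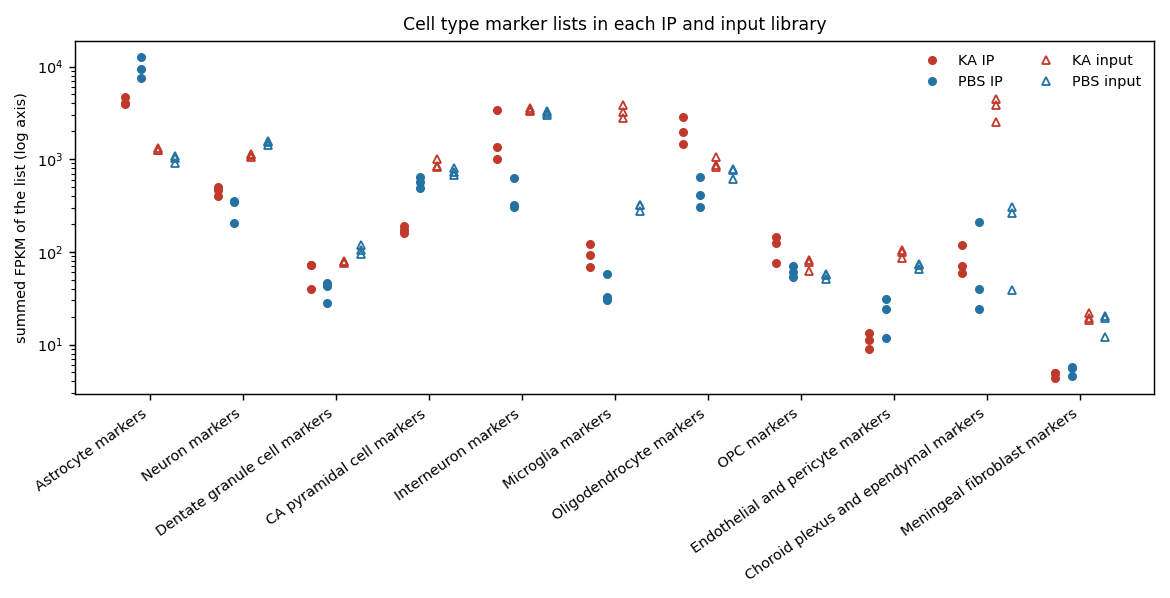
Summed FPKM (log axis) of 11 cell type marker lists in each library: filled circles are IP libraries and open triangles input libraries, red for KA and blue for PBS, 3 points a group. Astrocyte markers sit higher in IP than in input in both groups and lower in KA IP than in PBS IP, while oligodendrocyte markers sit higher in KA IP than in any PBS IP library and microglia markers are far higher in KA input than in PBS input.

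Many genes differed between KA and PBS, in both directions. A gene was called when its adjusted p was below 0.05 and its change at least 2-fold (edgeR's quasi-likelihood test, Benjamini-Hochberg over all 9847 genes). By that rule 796 genes rose, 8.08% of those tested, and 920 fell, 9.34%. By adjusted p alone 3647 genes, 37%, passed, and in 4531 genes, 46%, the lowest library of either group lay above the highest of the other. The median log2 fold change over all genes tested was -0.01. The scaling of the libraries (TMM) itself brings the bulk of genes near 0, so this is no separate result. With library totals alone the median was -0.04. A further 707 genes were above the FPKM filter in all KA IP libraries and 1918 in all PBS IP libraries, without passing it in all 6; they were not tested. Among genes tested the rising side reached further: 43 genes rose and 10 fell by 8-fold or more. The filter left out more genes on the PBS side, so large falls may be missing more often than large rises.

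The IP to input ratio split the directions unequally. A ratio of 2 or more marks a gene as astrocyte-enriched, taken in the KA group for genes that rose and in the PBS group for genes that fell. The name follows the ratio alone: the oligodendrocyte marker Cldn11, given below, also passed it in the KA group. Of the 796 genes that rose, 187 (23.5%) were astrocyte-enriched, and of the 920 that fell, 455 (49.5%), which is 1.9% and 4.62% of all genes tested. In the PBS group 1529 of all genes tested (15.5%) had a ratio of 2 or more, but in the KA group 659 (6.69%), so the yardstick itself differed between groups. Asking for the ratio in both groups left 98 genes that rose and 77 that fell. Among the genes that rose, 364 had a lower mean FPKM in KA IP than in KA input.

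**Figure D2:**
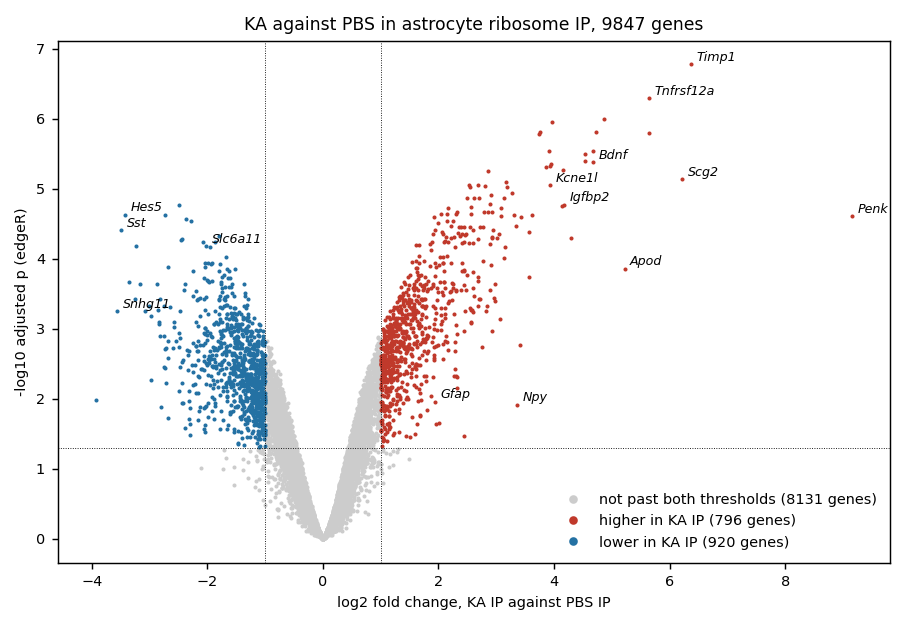
Each point is 1 of 9847 genes: the x axis is the log2 fold change of KA IP against PBS IP and the y axis the -log10 adjusted p of edgeR's test; dotted lines mark 2-fold and adjusted p 0.05, red points rose (796) and blue points fell (920). The rising side extends further than the falling side, to Penk at 9.16.

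The astrocyte-enriched genes that rose furthest were led by Penk. The leading genes in each direction were picked among calls without overlap between KA and PBS, so their separation is no separate result. Here and below, values are FPKM in replicates 1, 2 and 3 of KA IP against those of PBS IP, changes are on the log2 scale, and coordinates are those of the GENCODE M21 gene on mm10. Penk, which encodes the precursor of the enkephalin opioid peptides (chr4:4133531-4138819), was at 2380, 1905 and 6297 in KA IP and 8.75, 6.16 and 3.96 in PBS IP. The lowest KA library was 218-fold above the highest PBS library, and KA IP 3 was the highest of all. Its log2 fold change was 9.16 ± 0.76 (SE; adjusted p = 2.47e-05), the largest of all genes tested. Timp1, a secreted inhibitor of matrix metalloproteinases (chrX:20870166-20874735), was at 145, 119 and 117 in KA IP and 1.34, 1.58 and 1.72 in PBS IP, a log2 fold change of 6.37 ± 0.224 with the smallest adjusted p of all, 1.66e-07. The 3 KA libraries lay close together, far above the PBS libraries. Scg2, the granin secretogranin II of dense-core vesicles (chr1:79434669-79440120), was at 1030, 944 and 1538 against 19.1, 13.5 and 15.4, again without overlap, with a log2 fold change of 6.22 ± 0.414 (adjusted p = 7.25e-06). 

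The next genes were of the same order. Serpina3n, a secreted serine protease inhibitor of reactive astrocytes (chr12:104406729-104414329), was at 725, 511 and 521 in KA IP against 11.7, 9.37 and 14.2 in PBS IP, a log2 fold change of 5.65 ± 0.295 (adjusted p = 1.58e-06). Its relative Serpina3a was at 0 in every library. Tnfrsf12a, the receptor of the cytokine TWEAK, was at 71.4, 81 and 80 against 1.94, 1.22 and 1.48, a log2 fold change of 5.64. Apod, a lipid-carrying lipocalin that oligodendrocytes also express, was at 1240, 856 and 440.4 against 15, 10.4 and 44.5. KA IP 1 and PBS IP 3 were the highest of their groups for Apod, and the lowest KA library was still 9.91-fold above the highest PBS library, with a log2 fold change of 5.22 ± 0.57. A2m, the protease scavenger alpha-2-macroglobulin, the chemokine Cxcl10, Igfbp7 and the ubiquitin-like Isg15 rose by 4.87, 4.73, 4.54 and 4.53 on the log2 scale. All calls of these 10 genes held with any 1 of the 6 libraries left out.

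The astrocyte-enriched genes that fell furthest included non-coding RNAs as well as astrocyte genes. Hes5, the Notch-driven repressor that marks radial glia and immature astrocytes (chr4:154960923-154962371), was at 3.29, 2.04 and 2.08 in KA IP and 28.7, 29.5 and 20.5 in PBS IP. The lowest PBS library was 6.21-fold above the highest KA library, and the log2 fold change was -3.43 ± 0.281 (adjusted p = 2.36e-05). Mfge8, a secreted bridge between apoptotic debris and phagocytes, was at 14.2, 18 and 16.8 against 155, 189 and 107, a log2 fold change of -3.23. Gstm5, a glutathione transferase, was at 322, 365 and 409 against 2555, 3414 and 1807, a log2 fold change of -2.85. The lowest PBS library was 5.94-fold above the highest KA library for Mfge8 and 4.42-fold for Gstm5.

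The other 7 were Snhg11 (-3.56), Pantr1 (-3.35), Snhg20 (-3.24), Meg3 (-3.08), Pabpn1 (-3.01), Zfp692 (-2.83) and Gm23823 (-2.82), on the log2 scale. Pantr1, Snhg20 and Meg3 are long non-coding RNAs, and Snhg11 is a host gene of small nucleolar RNAs that the annotation lists as protein-coding. Long non-coding RNAs were looked at as a class after the values were seen: of 349 long non-coding RNAs tested, 6 rose (1.72%) and 136 fell (39.0%). Over all genes tested 8.08% rose and 9.34% fell. They took 0.72%, 0.874% and 1.27% of counts in KA IP 1, 2 and 3, and 2.31%, 2.83% and 4.92% in PBS IP. In AAV control IP 1, 2 and 3 the shares were 1.36%, 1.84% and 2.37%, above every KA library and, in the last, within the PBS range. The part of the number of genes detected in this result was not tested. Of 18 mitochondrial genes 15 fell; their share of counts was 1.35%, 1.25% and 0.55% in KA IP and 5.92%, 1.24% and 4.42% in PBS IP, where PBS IP 2 lay below KA IP 1 and 2. Of 41 small RNA genes 20 fell and 3 rose, but their share was higher in KA IP, at 1.04%, 1.19% and 0.54% against 0.654%, 0.637% and 0.468%, with KA IP 3 within the PBS range.

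**Figure D3:**
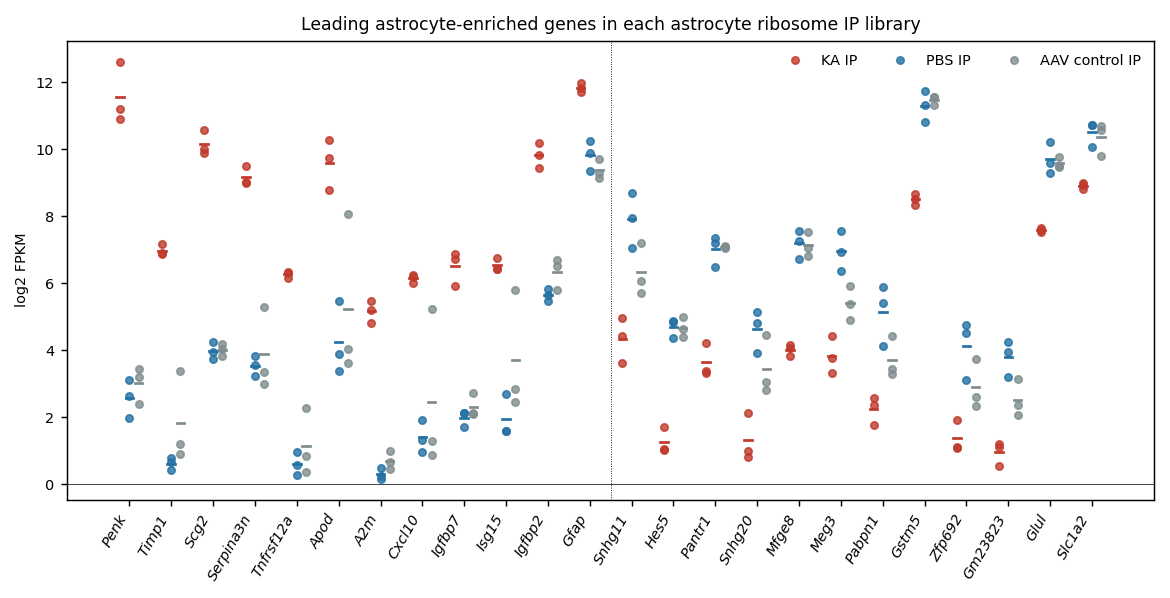
The log2 FPKM of leading astrocyte-enriched genes, with Igfbp2, Gfap, Glul and Slc1a2, in each IP library: red points are KA, blue PBS and grey AAV control (3 libraries each), and bars are group means of log2 FPKM. Genes left of the dotted line were higher in KA and genes right of it lower, with no overlap between KA and PBS in any of them. The leading genes were picked among calls without overlap, so for them this follows from the choice. AAV control IP 3 stands above AAV control IP 1 and 2 for Timp1, Serpina3n, Apod, Cxcl10 and Isg15.

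All pan-reactive genes that could be tested rose. Of the 13 genes of that list 7 were tested, since the other 6 were below FPKM 1 in at least 1 library, and all 7 rose, against 8.08% of all genes, with a median log2 fold change of 4.14 against -0.01 over all genes. Passing the filter needs expression in PBS, so the count of 7 says nothing of the other 6. List counts in IP, here and below, stand beside 8.08% of all genes tested that rose and 9.34% that fell. Vim, the intermediate filament vimentin (chr2:13573927-13582826), was at 354, 328 and 168 in KA IP and 15.2, 15.8 and 16.3 in PBS IP, a log2 fold change of 4.14 ± 0.32. KA IP 3 was the lowest KA library and still 10.3-fold above the highest PBS library. Cd44, the hyaluronan receptor, was at 31.9, 28.9 and 22.3 against 2.18, 1.93 and 2.01 and rose by 3.75. Aspg, an asparaginase, rose by 2.54.

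Gfap, the filament that defines astrocytes in histology (chr11:102887336-102900912), rose less. It was at 3377, 3624 and 4051 in KA IP and 958, 1225 and 655 in PBS IP, a log2 fold change of 1.94 ± 0.486 (adjusted p = 0.0109). KA libraries were all above PBS libraries, but the call was lost without PBS IP 1 (1.91, adjusted p = 0.0636). In the inputs Gfap was at 376, 390.0 and 363 against 40, 49.4 and 39.5, a log2 fold change of 3.12 ± 0.152.

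Among the untested pan-reactive genes, Lcn2, Hspb1 and S1pr3 were low in PBS and abundant in KA. Lcn2, the iron-carrier scavenger lipocalin 2, was at 140.5, 65.4 and 43.7 in KA IP and 0.0238, 0.0668 and 0.109 in PBS IP. Hspb1, a small heat shock protein that binds filaments, was at 443, 440.1 and 273 against 0.182, 1.19 and 2.12. S1pr3, a receptor of sphingosine-1-phosphate, was at 40.1, 34.7 and 31.4 against 1.27, 0.588 and 1.07. The KA and PBS values of these 3 genes did not overlap. With no FPKM filter, 13 of the 13 pan-reactive genes rose. Over all genes 2056 rose and 2967 fell in that fit, against 796 and 920 with the filter. The 8.08% and 9.34% are thus not the background of counts with no FPKM filter, here and below. Those counts stand without a share over all genes. They take in genes that failed the filter through low values in PBS, so they are no separate support.

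Tested members of both the A1 and the A2 list rose. Of the A1 list 5 of 13 genes were tested and 5 rose (median 1.98), and of the A2 list 3 of 12 were tested and 3 rose (median 2.28). With no FPKM filter 10 of the A1 and 11 of the A2 genes rose. Serping1, the C1 inhibitor of the complement cascade, was at 30.2, 20.7 and 20.2 in KA IP and 1.21, 1.47 and 2.01 in PBS IP and rose by 3.94. Gbp2, an interferon-induced GTPase, was at 11.8, 15.4 and 10.2 against 1.27, 1.11 and 1.78 and rose by 3.18. C3, the central complement component often used as an A1 marker, was below the filter at 19.1, 10.8 and 9.31 in KA IP and 0.218, 0.255 and 0.37 in PBS IP. Of A2 genes, Tm4sf1, a membrane tetraspan protein, rose by 3.41 and Ptx3, a secreted pentraxin, by 2.28. Without KA IP 3, S100a10 of the A2 list missed the threshold (0.99). In the STAT3 and gp130 pathway, which drives the reactive programme, 7 of 15 genes were tested (median -0.24). Tnfrsf12a rose as given above, Cntfr, the CNTF receptor, fell by 1.54 on the log2 scale, and Stat3 itself passed the adjusted p without reaching 2-fold, at 0.91 ± 0.17.

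Interferon-stimulated genes rose together. Of 18 genes 9 were tested, 7 rose and 0 fell, with a median of 2.24, and 15 rose with no FPKM filter. Bst2, the virus-tethering protein tetherin, was at 232, 224 and 189 in KA IP and 11.2, 11.9 and 22 in PBS IP, a log2 fold change of 3.86 ± 0.243 (adjusted p = 4.80e-06). Isg15, a ubiquitin-like modifier, was at 85.9, 109 and 85.8 against 3.02, 2.99 and 6.5 (4.53 ± 0.272). In each case PBS IP 3 was the highest PBS library and remained far below KA. Ifit3, Ifitm3, Ifi27 and Ifi35 rose by 3.28, 2.98, 2.22 and 2.24. Stat2 went the other way without being called, at -0.84, and fell without PBS IP 1.

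MHC class I and antigen processing rose less steeply, with 7 of 13 genes tested rising, 0 falling and a median of 1.13. B2m, the light chain of MHC class I, was at 731, 672 and 888 in KA IP and 279, 254 and 304 in PBS IP (1.47 ± 0.239). H2-D1, a class I heavy chain, was at 192, 182 and 169 against 42, 44.6 and 92.5 (1.63), and H2-K1 rose by 1.39. The class I genes are near-identical copies between which reads can be split. Psmb8 and Psmb9, subunits of the immunoproteasome, rose by 1.37 and 1.60. Fitting all 9 IP libraries together left 1 of these 7 calls and 2 of the 5 A1 calls, with the AAV control libraries sharing the estimate of spread. AAV control IP 3 was far above the other AAV control libraries for this class: B2m was at 183, 153 and 2910 and Bst2 at 21.9, 19.1 and 156 in AAV control IP 1, 2 and 3.

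Complement genes that were tested also rose, 5 of 6 (0 fell; median 1.63), and 9 rose with no FPKM filter. C4b, a component of the classical pathway, was at 79.8, 60.8 and 43.4 in KA IP and 16.1, 16.3 and 16.1 in PBS IP and rose by 1.90; it was enriched in IP over input in both groups (4.15-fold and 11.6-fold). C1qa, a microglial gene, rose by 1.81 in IP but was at 0.0189 times its input level in the KA group. Cd59a, a membrane inhibitor of complement, rose by 2.31. Clu, the secreted chaperone clusterin, was lower in every KA library at 1262, 1308 and 1760 against 2784, 4070 and 2070 and missed the adjusted p (-1.06, 0.101), and it fell by DESeq2's test or without PBS IP 3.

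The promoters of 4 of the interferon and MHC genes that rose are shown because they hold the interferon-stimulated response element. It was searched as GAAA, NN and GAAA in a row, on both strands of the 250 bases before the RefSeq start (GRCm38.p6). Capitals mark the matches. Each sequence is given in the direction of transcription, and the Ifit3 matches lie on the opposite strand.
Isg15, chr4:156200859-156200918, minus strand: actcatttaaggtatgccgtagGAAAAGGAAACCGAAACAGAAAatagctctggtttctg
Bst2, chr8:71537563-71537622, minus strand: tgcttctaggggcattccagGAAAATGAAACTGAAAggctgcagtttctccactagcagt
Ifit3, chr19:34583364-34583423, plus strand: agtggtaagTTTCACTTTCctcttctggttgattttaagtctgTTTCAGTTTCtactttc
B2m, chr2:122147527-122147586, plus strand: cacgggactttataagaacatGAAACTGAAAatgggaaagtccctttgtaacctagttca
The stretch of Isg15 holds 3 overlapping matches, that of Bst2 2 overlapping matches, that of Ifit3 2 and that of B2m 1. The motif was in 3.46% of all 27025 promoters and in 3.08% of the 7608 promoters of genes tested. It was in 37 of 613 promoters of genes that rose (6.04%) and 20 of 630 of genes that fell (3.17%). Of the interferon genes that rose 3 of 6 held it, and of the MHC genes 3 of 7. Of the whole lists, risen or not, 6 of 14 interferon promoters and 3 of 15 MHC promoters held it. A match describes the letters and is no evidence of binding.

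The IGF system was led by binding proteins. IGF-binding proteins are secreted, hold insulin-like growth factors and set their access to receptors. Of 9 genes tested 5 rose and 0 fell (median 1.13), and the ligands Igf1 and Igf2 were below the filter. Igfbp2 (chr1:72824503-72852474) was at 1167, 903 and 702 in KA IP and 50.1, 56.7 and 44 in PBS IP. The lowest KA library was 12.4-fold above the highest PBS library, and the log2 fold change was 4.17 ± 0.32, a fold of 18 (adjusted p = 1.68e-05). It was astrocyte-enriched in both groups, 6.14-fold in KA and 2.81-fold in PBS. Igfbp7 was at 117, 107 and 61 against 3.25, 4.42 and 4.41, a log2 fold change of 4.54 ± 0.265, and was enriched in IP in the KA group alone (3.48-fold, against 0.521-fold in PBS). Igfbp5 rose by 1.46 and Igfbp6 by 1.70. The receptors were not called: Igf1r was at 0.27 ± 0.261, and Insr at -0.76 ± 0.208 passed the adjusted p alone.

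Of the protease inhibitors 5 of 16 genes tested rose and 1 fell (median 0.33), and 8 rose with no FPKM filter. Besides Timp1, Serpina3n, A2m and Serping1, Serpinf1, the pigment epithelium-derived factor, was at 405, 320.2 and 253 in KA IP and 24.5, 34.9 and 20.3 in PBS IP and rose by 3.57. The member that fell, neuroserpin Serpini1, was no longer called without KA IP 1, KA IP 2 or PBS IP 1. Cst3, the cathepsin inhibitor cystatin C, was among the most abundant transcripts of both groups, at 29709, 34227 and 40518 against 38663, 47409 and 33468, and its groups overlapped.

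Neuropeptides and granins, proteins that neurons pack into dense-core vesicles, rose as a group with exceptions. Of 16 genes tested 9 rose and 2 fell (median 1.61), and 14 rose with no FPKM filter. Pdyn, the dynorphin precursor, was at 14.2, 14.7 and 22 in KA IP and 2.29, 2.12 and 1.75 in PBS IP and rose by 3.05. Vgf, a granin induced by neurotrophins, was at 50.4, 54.3 and 47.2 against 4.49, 2.77 and 4.17 and rose by 3.74 (adjusted p = 1.65e-06). Chga and Chgb, chromogranins A and B, rose by 2.17 and 2.55. For each of these no PBS library reached any KA library.

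Sst went the opposite way. The interneuron peptide somatostatin (chr16:23889573-23890958) was at 16.8, 17 and 13.8 in KA IP and 268, 147 and 117 in PBS IP, a log2 fold change of -3.49 ± 0.313 (adjusted p = 3.92e-05). It was below its input level in both groups, at 0.0179 times input in KA and 0.149 in PBS. Cck, the peptide cholecystokinin, was at 1054, 354 and 288 against 81.8, 44.3 and 75.2 and rose by 3.06, with KA IP 1 the highest. Npy, neuropeptide Y, was at 218, 568 and 3010 against 220.2, 101 and 72.2, a log2 fold change of 3.36 ± 0.863. KA IP 3 was 5.3-fold above the next KA library, KA IP 1 was within the PBS range, and the call was lost without PBS IP 3 (3.03, adjusted p = 0.066). Cpe, the carboxypeptidase that trims peptide precursors, was the other gene that fell (-1.47), and its call was lost without any of KA IP 1, 2 and 3 or PBS IP 1 and 2 (adjusted p from 0.0677 to 0.202), with RLE size factors or with no FPKM filter.

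Growth factors were divided, with 6 of 11 genes tested rising and 2 falling (median 1.19), and 11 rising with no FPKM filter. Bdnf, the brain-derived neurotrophic factor (chr2:109674700-109727007), was at 70.2, 62 and 87.2 in KA IP and 3.42, 2.01 and 3.37 in PBS IP, a log2 fold change of 4.67 ± 0.284 (adjusted p = 4.18e-06). The lowest KA library was 18.1-fold above the highest PBS library. Hbegf, an EGF receptor ligand, rose by 2.08, Fgf2 by 1.65 and the matricellular Ccn1 by 3.09. Fgf1 fell by 1.13 on the log2 scale, to -0.94 and below the threshold with no FPKM filter. Ptn, pleiotrophin, at -1.17, was not called without KA IP 1, KA IP 3 or PBS IP 1.

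Immediate early genes, transcription factors and regulators that activity switches on within minutes, were higher 14 days after KA. Of 13 genes tested 8 rose and 0 fell (median 1.45), and 15 rose with no FPKM filter. Arc was not called without KA IP 3, PBS IP 1 or PBS IP 2, nor Jund without KA IP 1, KA IP 2 or PBS IP 3. Fos was at 42, 35.1 and 40.4 in KA IP and 4.33, 3.09 and 6.93 in PBS IP and rose by 3.08 ± 0.24. Junb was at 47.8, 44.9 and 35.9 against 7.87, 5.76 and 8.64 and rose by 2.54, with no overlap for either gene. Egr1, Egr4, Ier2 and Nr4a1 rose by 2.55, 2.86, 2.61 and 2.09. Jun (0.34) and Egr3 (0.32) were not called, and their groups overlapped.

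The cyclic AMP response element TGACGTCA, which is its own reverse complement, was searched in the same promoters because many neuropeptide genes hold it. It is in capitals in these 30-base stretches of Scg2 and Chgb, which rose, and of Sst, which fell.
Scg2, chr1:79440076-79440105, minus strand: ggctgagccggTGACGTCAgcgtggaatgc
Chgb, chr2:132781559-132781588, plus strand: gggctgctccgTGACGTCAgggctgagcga
Sst, chr16:23890874-23890903, minus strand: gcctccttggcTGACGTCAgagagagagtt
The same letters were thus present in members that moved in opposite directions. The motif was in 1.77% of all promoters, 3.22% of those of genes tested and 5 of the 18 promoters of the neuropeptide list that matched. It was in 3.92% of promoters of genes that rose and 2.86% of those that fell. All 3 stretches overlap exons of longer transcripts in GENCODE.

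Glutamate and GABA clearance genes were lower as a group in KA IP. Of 13 genes tested 11 fell, against 9.34% of all genes, and 0 rose, with a median of -1.38, the lowest of the 30 functional lists. With no FPKM filter 8 fell, and with 1 library left out 8 to 11 fell. Astrocyte markers, which include Slc1a2 and Slc1a3, also had a negative median in IP (-0.64). They summed to 3976 to 4661 in KA IP and 7490 to 12765 in PBS IP. The part of this weaker astrocyte enrichment of KA IP in the clearance result was not tested. Glul, the glutamine synthetase that turns glutamate into glutamine (chr1:153899944-153909723), was at 203, 185 and 193 in KA IP and 776, 1188 and 627 in PBS IP. The KA libraries were tightly grouped, the lowest PBS library was 3.09-fold above the highest of them, and the log2 fold change was -2.19 ± 0.379 (adjusted p = 0.00178). Slc6a11, the GABA transporter GAT3 of astrocytes (chr6:114131241-114249952), was at 10.1, 10.3 and 7.75 against 42.3, 37.7 and 33, a log2 fold change of -2.02 ± 0.198. Glud1, Maob, Slc7a10 and Slc7a11, which oxidise glutamate, degrade amines and exchange amino acids including D-serine and cystine, fell by 1.27, 1.38, 1.60 and 1.51.

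The main glutamate transporters fell with more spread. Slc1a2 (GLT-1, chr2:102658659-102790784) was at 448, 507 and 486 in KA IP and 1699, 1691 and 1067 in PBS IP, a log2 fold change of -1.65 ± 0.49 (adjusted p = 0.0233). The groups did not overlap, but the adjusted p was between 0.0714 and 0.133 without KA IP 1, KA IP 2, KA IP 3 or PBS IP 1. Slc1a3 (GLAST) was at 136, 128 and 97.5 against 276, 273 and 186 (-1.05 ± 0.318), and of the fits that left out 1 library, only that without PBS IP 3 kept its call (adjusted p from 0.0605 to 0.0995 in the other 5). Slc38a3, which exports glutamine, was higher in every KA library without being called (0.40).

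Potassium and water handling did not move as a block. Of 16 genes tested 3 rose and 3 fell (median 0.04). Kcnj10, the inward rectifier Kir4.1 that buffers potassium, was at 144, 132 and 104 in KA IP and 75.4, 78.4 and 60.2 in PBS IP, and passed the adjusted p short of 2-fold at 0.80 ± 0.25 (adjusted p = 0.0283). Aqp4, the endfoot water channel, was at 383, 379.7 and 293 against 194, 223 and 141, higher in every KA library at 0.89 ± 0.324 and not past the threshold (adjusted p = 0.0525). Kcnj16, which pairs with Kcnj10, was at 4.88, 4.42 and 5.31 against 13, 11.4 and 12.7 and fell by 1.33. So the subunits of that channel lay on opposite sides. Fxyd1, the sodium pump regulator phospholemman, and Atp1b1, a pump subunit, rose by 1.69 and 1.65, and the chloride channel gene Clcn2 fell by 1.67.

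In the endfoot dystrophin complex 1 of 9 genes tested fell and 0 rose (median -0.23): Dmd, at -1.16, which was not called without PBS IP 3 or with no FPKM filter, while Aqp4 rose without PBS IP 2. Among gap junction connexins 1 of 5 rose and 1 fell. In both lists these counts are 1 gene each, beside 8.08% of all genes that rose and 9.34% that fell. Gja1, connexin 43, was at 32.3, 31.6 and 23.2 in KA IP and 71, 68.3 and 51.6 in PBS IP, a log2 fold change of -1.16 ± 0.253, which was -0.98 with no FPKM filter. Gjb6, connexin 30, overlapped between groups (-0.36). Gjb2, connexin 26, lay at the fold threshold and rose without KA IP 2, KA IP 3 or PBS IP 2 and by DESeq2, limma voom, library totals or the replicate block (1.26 without PBS IP 2).

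Of 27 potassium channel genes 22 were tested, 5 rose and 3 fell (median 0.35), with 5 falling without KA IP 2 or PBS IP 2. Kcne1l, an accessory channel subunit (chrX:142304752-142306294), was at 487, 460.4 and 388 in KA IP and 31, 32.1 and 22.7 in PBS IP, a log2 fold change of 3.94 ± 0.272 (adjusted p = 8.92e-06). It was astrocyte-enriched at 7.54-fold in KA and 7.83-fold in PBS. Kcnj3, a G protein-gated channel of neurons, rose by 1.58, and Kcnn2, a calcium-gated channel, fell by 1.92. Kcna1, Kcna6, Kcnd2 and Kcnj3 were all below their input level in PBS IP.

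Notch and transcription factor genes fell where they were called. In the Notch pathway 2 of 10 genes tested fell and 0 rose (median -0.56): Hes5, given above, and the Notch-modifying Lfng, at 2.98, 3.53 and 2.88 in KA IP and 9.77, 6.68 and 6.92 in PBS IP (-1.32). Of astrocyte transcription factors 4 of 16 fell and 0 rose (median -0.41). Without PBS IP 3, 6 fell, and without KA IP 3 or with no FPKM filter 3 fell. Lhx2 and Emx2, homeobox factors of the developing hippocampus, were at 11.8, 12.3 and 7.43 and 3.86, 4.48 and 2.61 in KA IP against 30.4, 28.3 and 22 and 10.4, 8.08 and 8.34 in PBS IP, with log2 fold changes of -1.39 and -1.31. Sox9, the general astrocyte factor, overlapped between groups at 60.3, 56.8 and 21.9 against 42.6, 33.3 and 28.5 (0.37).

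In the BMP pathway 4 of 13 genes tested rose and 1 fell (median 0.07). Smad7, an inhibitor of the pathway, was at 10.2, 9.3 and 3.31 in KA IP and 1.6, 1.05 and 1.43 in PBS IP and rose by 2.45, and the ligand Bmp6 was at 4.58, 3.62 and 3.27 against 1.55, 1.28 and 1.78 and rose by 1.32. The receptors Bmpr1a (-0.74) and Bmpr1b (-0.82) were lower by the adjusted p alone. Only Smad7 and Bmp6 rose without KA IP 2 or without PBS IP 1, since Id3 and the receptor Acvr1 then missed the thresholds. Id4, the member that fell, was not called without KA IP 3.

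Of the receptors of astrocyte calcium signalling 3 of 15 fell and 0 rose (median -0.18), with S1pr3 passing the filter and rising without PBS IP 2. The adenosine receptor gene Adora1 was higher in every KA library and by the adjusted p alone (0.65). Grm3, the metabotropic glutamate receptor mGluR3, was at 10.5, 10.5 and 10.5 in KA IP and 54.1, 44.1 and 32.2 in PBS IP (-2.06 ± 0.236, adjusted p = 1.86e-04). S1pr1, a sphingosine-1-phosphate receptor, was at 36.8, 36.9 and 35.6 against 157, 152 and 118 (-1.98). The lowest PBS library was 3.06-fold above the highest KA library for Grm3 and 3.2-fold for S1pr1, while S1pr3 of the same family was far higher in KA, as given above.

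Cholesterol synthesis genes were mostly lower, by small steps. Of 21 genes tested 6 fell and 0 rose by both thresholds, and by the adjusted p alone 15 were lower and 1 higher, with a median of -0.82. Without PBS IP 2, 4 fell and 1 rose, and the counts with no FPKM filter were the same. Msmo1 and Tm7sf2, late enzymes that process sterols, were at 10.9, 10.8 and 11.6 and 1.71, 1.7 and 1.84 in KA IP against 30.8, 36.1 and 28.9 and 4.82, 6.32 and 5.47 in PBS IP and fell by 1.53 and 1.66. Of lipid transport genes 2 of 13 rose and 1 fell (median -0.15), counts not far from the 8.08% and 9.34% of all genes. Abca1, which exports cholesterol, rose by 1.43, Apod rose as given above, and Lcat, which esterifies it, fell by 1.38. Clu fell without PBS IP 3. Apoe was abundant in both groups and overlapped (27580, 26973 and 19199 against 25659, 33434 and 20388).

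The spectrin, ankyrin and actomyosin scaffold fell in 10 of 21 genes tested and rose in 0 (median -0.91), with Add3 rising without KA IP 3. Sptan1, the alpha spectrin, was at 30.1, 40.8 and 47.2 in KA IP and 107, 168 and 388 in PBS IP, a log2 fold change of -2.43 ± 0.457. PBS IP 3 was the highest and PBS IP 1 the lowest of a wide PBS range that stayed above the KA libraries. The IP to input ratio of Sptan1 was 21.1 in PBS and 4.17 in KA.

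In the matrix list 2 of 11 genes tested rose and 4 fell (median -0.36), and 5 rose with no FPKM filter. The secreted relatives Sparc and Sparcl1 moved apart. Sparc was at 2516, 2682 and 2846 in KA IP and 679, 792 and 667 in PBS IP and rose by 1.91 ± 0.405, whereas Sparcl1 (hevin), which promotes synapse formation, was at 307, 396 and 325 against 1319, 1630 and 1028 and fell by 1.98 ± 0.363. Bcan, the proteoglycan brevican, was at 56, 53.8 and 42.4 against 215, 275 and 156 (-2.12), while Ncan, neurocan, overlapped (0.14). Of synaptogenic and pruning factors 2 of 15 rose and 2 fell (median -0.18), counts not far from the 8.08% and 9.34% of all genes. With no FPKM filter 4 rose. Gpc4, a glypican that recruits AMPA receptors, rose by 2.55, and Mertk, the receptor for engulfment, fell by 1.59.

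Of glycolysis and lactate genes 3 of 19 rose and 2 fell (median 0.25), counts close to the 8.08% and 9.34% of all genes, and 2 rose without KA IP 1, PBS IP 1 or PBS IP 3: Slc16a1, the monocarboxylate transporter MCT1, rose by 1.65 and Pfkfb3, an activator of glycolysis, by 1.30, while Pygb, the brain glycogen phosphorylase, fell by 1.40. Aldoc, the astrocyte aldolase, was at 1268, 1280 and 1745 in KA IP and 4598, 7338 and 4009 in PBS IP (-1.91 ± 0.513). Its call was lost without KA IP 1 or KA IP 2 (adjusted p = 0.0932 and 0.0965).

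Of metallothionein, iron and antioxidant genes 6 of 21 rose and 2 fell (median 0.36), and 4 rose without PBS IP 3. Gpx1, a glutathione peroxidase, was at 519.6, 409.7 and 344 in KA IP and 59.7, 54.1 and 52.5 in PBS IP and rose by 2.92, and Hmox1, the haem oxygenase, rose by 1.62. Gstm5 fell, as given above, and Gstm1 (-1.26) lost its call without any of KA IP 1, 2 and 3 or PBS IP 1 and 2 (adjusted p from 0.0826 to 0.17). The abundant Mt3 was at 1686, 1894 and 6608 against 5111, 6745 and 3458, and overlapped through KA IP 3.

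Of chaperones 5 of 15 rose and 1 fell (median 0.95), with 9 rising without KA IP 1 and 11 with no FPKM filter, since Hsp90aa1 (0.98) and its relatives lay just short of 2-fold. Hspb6 was at 44.1, 40.5 and 37.9 in KA IP and 7.28, 5.98 and 5.72 in PBS IP and rose by 2.68, and Cryab, alpha B crystallin of Alexander disease fibres, was at 553, 452 and 388 against 134, 129 and 163 and rose by 1.71. Hsf1, the heat shock transcription factor, fell by 1.27. Of 16 cell cycle genes 3 were tested, and Ccnd1, the cyclin of the G1 phase, rose by 2.41 (median 0.49; 0 fell). Mki67, Top2a and Cdk1 were below the filter.

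**Figure D4:**
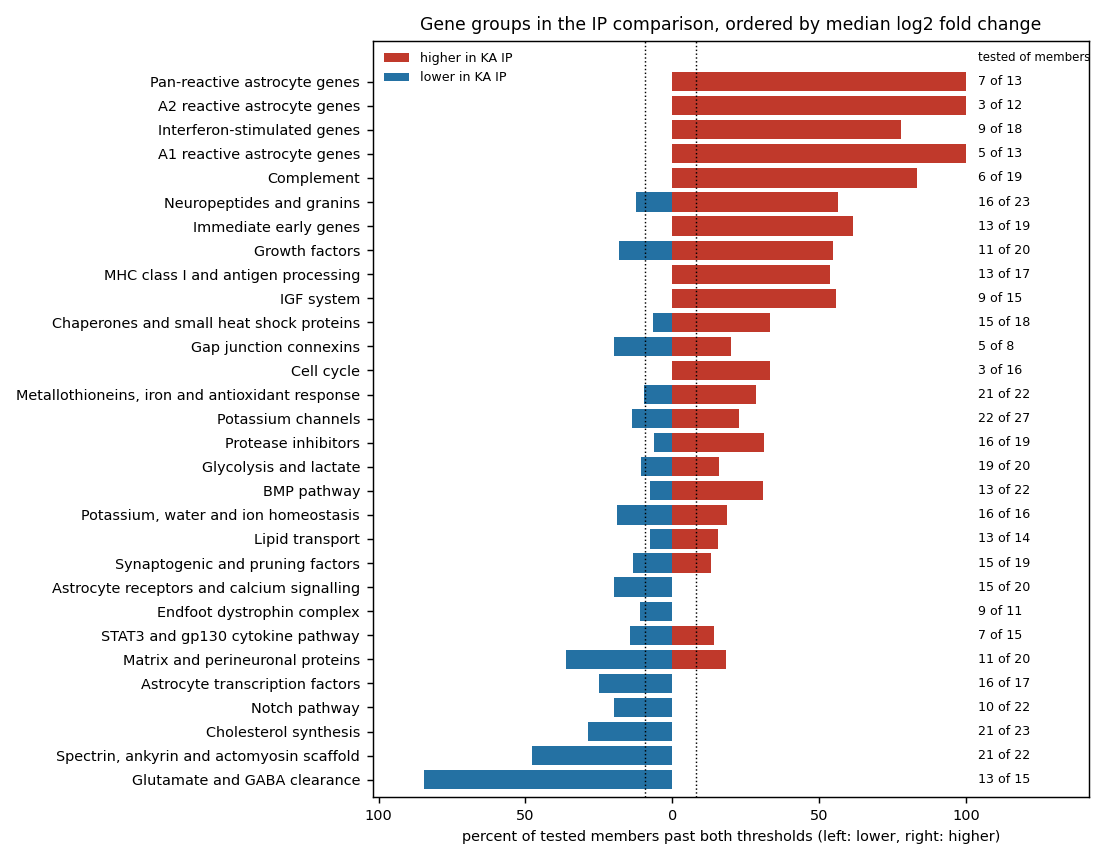
Bars show, for 30 gene lists ordered by median log2 fold change, the percent of tested members that rose (red, right) and fell (blue, left) in KA IP, with the number tested of all members at the right; dotted lines mark the 8.08% that rose and 9.34% that fell among all genes tested. Pan-reactive, A1 and A2 genes stand at the top with every tested member risen, and glutamate and GABA clearance at the bottom with 11 of 13 fallen.

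Markers of other cell types moved with the comparison and are given as measured. All 11 oligodendrocyte markers rose in IP, with a median of 2.07. Cnp was not called without KA IP 1, PBS IP 1 or PBS IP 2, and 9 markers rose with all 9 IP libraries fitted. Cldn11, the tight junction claudin of myelin, was at 92.1, 72.2 and 56.9 in KA IP and 10.3, 3.79 and 17.8 in PBS IP (2.84 ± 0.382), with KA IP 1 the highest. Its inputs were at 30.5, 29.1 and 30.2 against 26.6, 20.6 and 15.2, so Cldn11 was 2.46-fold enriched by the IP in the KA group and depleted to 0.511 times input in the PBS group. The precursor marker Olig1 rose (1 of 5 OPC markers; median 0.41) but was not called without KA IP 1.

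Microglia markers rose in 6 of 9 tested, 0 fell, with a median of 1.46 in IP and, over 14 genes tested, 2.93 in input. C1qc was not called without KA IP 1, KA IP 3, PBS IP 1 or PBS IP 2. Ctss, cathepsin S, was at 33.1, 21.3 and 8.06 in KA IP and 4.78, 1.68 and 6.38 in PBS IP, and its inputs were at 768, 635 and 543 against 47, 57.5 and 55.7. The IP held 0.0321 of its input level in the KA group. The defining receptors Cx3cr1, Csf1r and Tmem119 were below the filter.

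Neuron markers rose in 3 of 13 and fell in 0 (median 0.57), with 5 rising without KA IP 1, 6 with no FPKM filter, and 2 without KA IP 3 or with all 9 IP libraries fitted. The neurofilaments Nefm and Nefl rose by 1.75 and 1.44, and Rbfox3 (NeuN) overlapped at 10.1, 14.7 and 14.9 against 15.5, 8.61 and 14.6. Dentate granule cell markers rose in 2 of 5 and fell in 0 (median 0.82): C1ql2 (1.81) and Prox1 (1.38). C1ql2 was not called without KA IP 3 or PBS IP 3. Without KA IP 1 or PBS IP 2, 3 dentate markers rose. Rfx3 fell without KA IP 2. CA pyramidal markers rose in 1 of 6 and fell in 2 (median -0.44): Bok rose by 1.99, and Neurod6 and Nnat fell by 2.43 and 2.46, with 3 falling without KA IP 2 or PBS IP 2. Interneuron markers rose in 3 of 8 and fell in 2 (median 0.57), with Pvalb rising by 1.94 and Sst falling as above. Without PBS IP 3, 2 interneuron markers rose. Calb2 was not called without PBS IP 1.

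Vascular and other markers were mostly under the filter. Of endothelial and pericyte markers 3 of 12 were tested, and Ly6c1 fell (-1.76; median -0.90; 0 rose), a call lost without PBS IP 2 or PBS IP 3. Without PBS IP 1, 2 of them fell. Of choroid plexus and ependymal markers 4 of 10 were tested, and Ttr, transthyretin, rose by 2.31 (median -0.42; 0 fell) at 37, 31.3 and 21.8 in KA IP against 4460, 3816 and 2478 in KA input. Of meningeal markers 1 of 9 was tested and not called (Islr, 0.38). Of the 16 astrocyte markers 5 fell and 0 rose (median -0.64): Ntsr2 (-1.60), Gja1, Slc1a2, Slc1a3 and Aldoc. The number that fell was 2 without KA IP 1 or KA IP 2, and 3 without KA IP 3, without PBS IP 1 or with no FPKM filter. Aqp4 rose without PBS IP 2, and 1 marker rose with no FPKM filter.

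The inputs told which changes were larger in IP than in the whole homogenate. IP came from cells that carried the vector injected into CA3, and input from all cells of the right hippocampus. IP and input thus differ in cells and region as well as in RNA on ribosomes. In the inputs 462 of 10849 genes rose (4.26%) and 118 fell (1.09%). The number that fell was 61 without KA input 1, 74 without KA input 2 and 246 without KA input 3. The interaction, the KA effect in IP minus that in input, was above 0 in 1613 genes (16.4%) and below 0 in 2092 (21.2%) at adjusted p below 0.05, with each homogenate, which gave 1 IP and 1 input library, as a block. Of the genes that rose in IP 723 were tested in input and 184 rose there, and of those that fell 868 were tested and 33 fell there. The interaction uses the IP values that made the calls, so for called genes its sign is no separate evidence.

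The lists fell into patterns. Their interaction counts, here and below, stand beside 16.4% of all genes above 0 and 21.2% below 0. For glutamate and GABA clearance the median change in input was -0.20, against -1.38 in IP, and the interaction was below 0 in 12 of 13 genes. Glul had an input change of -0.20 ± 0.151 and an interaction of -1.88 (adjusted p = 3.96e-04). Cholesterol synthesis was alike, with 0.15 in input and an interaction below 0 in 14 of 21 genes. So was the astrocyte marker list, with 0.59 in input and 15 of 16 genes below 0: S100b, a calcium-binding astrocyte protein, rose in input by 1.12 and overlapped in IP (-0.18 ± 0.369).

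The interaction was above 0 in 11 of 16 neuropeptide genes and below 0 in 3, and above 0 in 8 of 13 immediate early genes and below 0 in 0. Scg2 changed by 2.49 in input against 6.22 in IP, an interaction of 3.69 ± 0.296. Bdnf changed by 2.11 in input, an interaction of 2.56. Chgb was at -0.03 in input while it rose in IP, so its mean FPKM in IP went from 0.125 times input in PBS to 0.724 in KA. For oligodendrocyte markers the interaction was above 0 in 11 of 11 genes, with a median input change of 0.26.

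Of interferon genes 9 were tested in IP, with a median change of 2.24, and 6 of them in input, with a median of 2.44. The interaction was above 0 in 1 of the 9 and below 0 in 2, and did not pass in the other 6. These counts are near the 16.4% and 21.2% of all genes. On simulated counts the interaction fit passed 26% of genes changed by 2-fold, so not passing does not show an equal change. Vim (interaction 0.07 ± 0.193) and Kcne1l (-0.02 ± 0.193) had interactions near 0. Igfbp2 rose by 3.06 in input and its interaction was 1.13 ± 0.249 (adjusted p = 0.00351). Microglia markers had the larger change in input, with the interaction below 0 in 9 of 9.

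**Figure D5:**
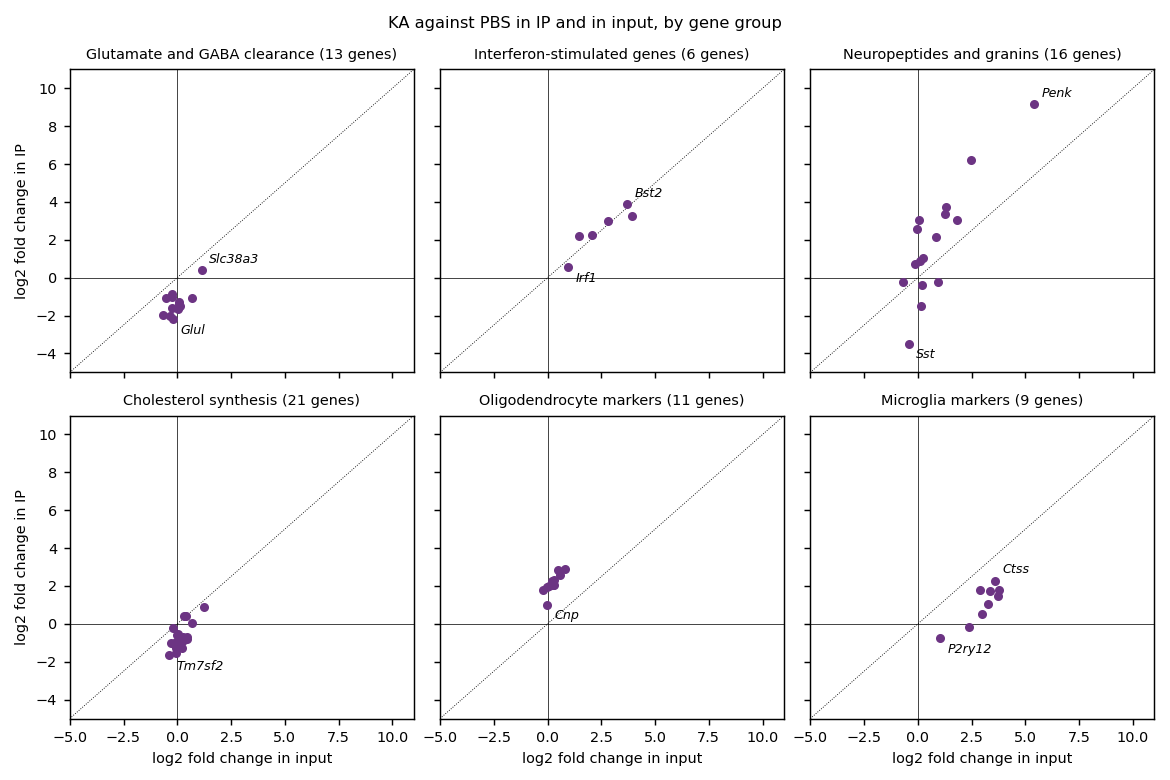
Each panel plots 1 gene list, with the log2 fold change of KA against PBS in input on the x axis and in IP on the y axis; the dotted diagonal marks equal change. Interferon-stimulated genes lie near the diagonal, neuropeptides, granins and oligodendrocyte markers mostly above it, and glutamate and GABA clearance, cholesterol synthesis and microglia markers mostly below it.

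The AAV control IP gives a reference from runs 1 and 2, which also held the KA libraries. Both comparisons use the KA libraries, so their values stand side by side and are not independent. Against AAV control, 622 of 9729 genes rose (6.39%) and 508 fell (5.22%). Between PBS and AAV control 0 of 10667 genes passed the adjusted p (edgeR), and 1153 (10.8%) had an unadjusted p below 0.05. Penk changed by 8.84 against AAV control and 9.16 against PBS, and Igfbp2 by 3.53 and 4.17. Gfap changed by 2.49 and 1.94, Hes5 by -3.33 and -3.43, and Glul by -1.95 and -2.19. All 5 passed the thresholds in both comparisons.

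Some genes depended on the reference. Interferon genes were high in AAV control IP 3: Isg15 was at 5.52, 7.14 and 56 in AAV control IP 1, 2 and 3, and changed by 1.98 against AAV control (adjusted p = 0.13). Bst2 changed by 1.67 (adjusted p = 0.179). Non-coding RNAs were intermediate in AAV control: Snhg11 was at 12.4, 21.5 and 31 in KA IP, 134, 249 and 415 in PBS IP and 52.4, 66.8 and 147 in AAV control IP, and changed by -1.99 against AAV control and -3.56 against PBS. The reads carry no strand, and the exons of Penk, Bdnf, Hes5, Glul, Cxcl10 and Slc1a2 overlap a gene on the opposite strand in the annotation, so their reads cannot be told apart.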

How the data were processed

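RNA was sequenced from anti-GFP IP and input of pooled right hippocampi (3 libraries a group and fraction; NEBNext Ultra II kit, which does not mark strand). Per the labels and the study's methods, reads were aligned to mm10 with STAR; the submitters' processing notes also name featureCounts and edgeR, without versions. For each library the authors deposited a table of raw counts per gene symbol and a table of FPKM values, which they normalised to exon length and library size; the annotation release is not given in the sources used here. Counts had no unassigned rows.

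Groups came from the sample titles. Genes with FPKM above 1 in all 6 IP libraries were tested on the deposited counts with edgeR 4.0.16 (quasi-likelihood F test, TMM) in R 4.3.3, adjusted by Benjamini-Hochberg. As in the study, a call needed an adjusted p below 0.05 together with a change of 1 or more on the log2 scale. The inputs were fitted alike, and the interaction in 1 fit of 12 libraries with each homogenate as a block. The correlation of deviations between an IP library and its own input was 0.131 to 0.629. Between same-numbered KA and PBS IP libraries it was 0.102, -0.274 and -0.0546, so numbers did not pair them. No pair of replicates agreed within counting noise (chi-square per gene of at least 5.78). A count of 0 was taken to allow up to 3 counts. The filter is on FPKM, which is scaled to exon length, so short genes can pass it with few counts. Among the named genes, Gm23823 has 124 bases of exon and CT010467.2 has 237. Whether depth was limiting for such short genes was not tested. Counts were also simulated for the 9847 genes of the IP comparison. Adjusted p below 0.05 in the right direction was reached by 65% of genes changed by 2-fold and 96% of those changed by 4-fold. The fold threshold of a call was not applied there, and 8 unchanged genes passed. For the interaction the shares were 26% and 91%, and 3 unchanged genes passed.

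Alternatives were RLE size factors, library totals (added after the data were seen), DESeq2 1.42.0, limma 3.58.1 (voom), other filters, all 9 IP libraries, a replicate block, and leaving out each library. Named genes were the 10 astrocyte-enriched calls with the largest change in each direction and without overlap, the 5 largest of all calls, in each list the 2 calls of smallest p in each direction or, with none, the member of smallest p, the 5 largest interactions in each direction, and Igfbp2, Kcne1l, Serpina3n, Serpina3a, Gfap, S100b, Bmp6, Penk, Bdnf and Rpl10a; other list members are named where a list is described. Some genes that these rules name are not reported here. The comparison, the 41 lists and these rules were chosen with earlier results of these data known. Gene locations were read from GENCODE M21 (96.4% of symbols matched) and promoters from RefSeq on GRCm38.p6.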

Additional observations from a re-analysis of the deposited data

Results flagged for a closer look

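The effect of KA differed between IP and input by the interaction test (edgeR, adjusted p below 0.05) in 1613 genes where it was higher in IP and in 2092 where it was lower, and these results were listed for that reason alone. Values are the KA effect in IP minus that in input on the log2 scale.

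The largest positive differences were 3.76 for Apod, 3.69 for Scg2, 3.60 for Penk, 3.37 for Ifitm10 and 2.99 for Pgam2. Ifitm10 belongs to the interferon-induced transmembrane family by sequence, and Pgam2 is the muscle form of a glycolytic mutase. The largest negative differences were -3.56 for CT010467.2, -3.25 for Cxcl5, -3.25 for Snhg11, -3.14 for Arhgap45 and -3.13 for Rpl23a-ps2. Cxcl5 is a chemokine that draws neutrophils, Arhgap45 is a GTPase regulator of blood cells, and Rpl23a-ps2 is annotated as a ribosomal pseudogene, whose reads may be split with its parent gene.

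Of the genes chosen for their role, the difference was 1.13 for Igfbp2, 2.24 for Serpina3n and 2.56 for Bdnf. It was -1.11 for Gfap, -1.30 for S100b and -0.72 for Rpl10a, the ribosomal protein of the tag. Gfap and Rpl10a were no longer past the threshold in the fit without the block or with no FPKM filter. Gfap also missed it without KA 1, KA 2, PBS 1 or PBS 2 (adjusted p up to 0.126 without KA 2), and Rpl10a without KA 2, KA 3, PBS 2 or PBS 3 (up to 0.199 without KA 3).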

How the results depend on the processing

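With no FPKM filter 2056 genes rose and 2967 fell in IP (478 and 1496 astrocyte-enriched), 1580 rose and 393 fell in input, and the interaction was higher in IP for 2597. With edgeR's filterByExpr 1736 rose and 2357 fell (397 and 1068 astrocyte-enriched). More genes were tested in each case. Requiring the IP to input ratio in both groups left 98 and 77 astrocyte-enriched genes. RLE size factors and DESeq2 kept each of these counts within 1.5 times; library totals, limma voom and all 9 IP libraries, run for the IP comparison alone, kept its counts within 1.5 times.

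Leaving out 1 library gave 776 to 881 genes that rose, 679 to 1045 that fell, 153 to 226 and 342 to 547 astrocyte-enriched, and an Igfbp2 log2 fold change of 4.02 to 4.36. In input it gave 410 to 545 that rose and 61 to 246 that fell (61 without KA input 1, 74 without KA input 2, 246 without KA input 3). For the interaction it gave 1154 to 1656 higher and 1512 to 1856 lower.

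With the replicate number as a block, 784 genes rose and 851 fell in IP, Igfbp2 was at 4.18, and 463 rose and 126 fell in input; the numbers do not pair KA with PBS libraries. Same-numbered libraries were not each other's closest match. The block lost the calls of Aldoc, C1ql2, Cpe and Gstm1 among the named genes. Without its homogenate block the interaction was higher in IP for 1027 genes.

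Of 111 named genes tested, 19 changed a call under any alternative. S100b, which was not called, was between -0.57 (without KA IP 3) and 0.079 (without PBS IP 2) with 1 library left out, and also above 0 without KA IP 1; the cause was not tested. With 3 libraries a group and a median SE of 0.214 in log2 fold change, changes near 2-fold were those most often lost.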
